A study of Caenorhabditis elegans with 12 samples.

Results

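The pals genes of Caenorhabditis elegans were followed through exposure to ultraviolet light (UV) and titanium dioxide (TiO2). A gene was counted as a member when its symbol in the array annotation began with "pals-" and its probe set carried that symbol alone. This rule gave 23 genes, each read by 1 probe set, of 17118 genes with a single symbol. The RefSeq gene table of the WBcel235 assembly lists 39 pals genes, and the other 16 were not analysed here. The study used wild-type hermaphrodite young adults from an age-synchronised culture, in 4 groups of 3 Affymetrix arrays: control, UV, TiO2, and UV with TiO2. All animals spent 24 h at 20 °C without food in K-medium, a salt solution of potassium and sodium chloride. Animals of both UV groups were irradiated for the first 4 h and then spent 20 h in the incubator that held the control and TiO2 animals. The TiO2 groups received the particles in K-medium, at a concentration that is not given in the sources used here.

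The pals family is named for a protein signature shared with the human gene ALS2CR12, and its biochemical function is largely unknown. Several members belong to the intracellular pathogen response, a set of C. elegans genes induced in the intestine when microsporidia or the Orsay virus grow inside its cells. pals-5 is the usual reporter of that response. pals-22 holds the response down and pals-25 promotes it, and loss of pals-22 raises many other pals genes through pals-25. Outside the family, the response includes cul-6 and Skp1-related skr genes, which encode parts of a ubiquitin ligase complex, and its known regulators include the purine nucleoside phosphorylase PNP-1.

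The values are log2 signals from whole animals, so fewer cells of a type and less RNA per cell cannot be told apart. Array medians lay between 6.36 and 6.48 with UV and between 6.54 and 6.63 without, so they separated by UV. Arrays of 1 group correlated at 0.987 to 0.998 over all probe sets. Whether replicate arrays hold RNA of separate cultures is not stated, so each p-value rests on a spread between samples that could be technical alone. Genes that mark the adult hermaphrodite were bright, with a mean signal over 7 stage markers of at least 11.41 on every control array. The 10 genes listed for late embryos or early larvae, some of them moulting genes, were bright too. Their means per array were 10.20 to 10.42 in the controls and 6.72 to 6.85 with UV. Whether they mark those stages alone was not tested. Under UV against control 27.5% of all probe sets rose and 23.1% fell. Of 11 intestine markers, 10 fell under UV, and their mean signal per array went from 10.80 to 11.01 in the controls to 8.92 to 9.04 with UV. The 10 genes listed for late embryos or early larvae all fell, 6 of 8 germline markers rose and 1 fell, and 5 of 6 sperm markers rose. The hypodermis list had 4 of 8 risen and 3 fallen, the adult-stage list 3 of 7 risen and 3 fallen, the neuron list 5 of 6 fallen and the body wall muscle list 3 of 5 fallen. No gene of any marker list passed the test with TiO2 alone. The part of these shifts in the pals results was not tested.

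Most pals probe sets were dim. By mean signal over the 12 arrays, all probe sets were divided into 5 bins of equal size, and 17 of the 23 members lay in the lowest bin, which spans 3.37 to 4.93. A further 4 lay in the next bin up, and 2, pals-22 and pals-25, lay in the middle bin. Signals of different probe sets do not rank transcripts, because probes differ in affinity, and the deposited table holds no detection calls. A dim probe set without a change may therefore be one whose transcript was not detected. pals-37 was the dimmest member, at a mean signal of 3.48, and pals-5 stood at 4.01, above 3.72% of all probe sets.

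UV lowered 4 pals genes and raised 2. Both measured regulators, pals-22 and pals-25, fell by 0.60 and 0.50 on the log2 scale, pals-23 and pals-31 fell by 1.22 and 0.61, and pals-2 and pals-4 rose by 0.43 and 0.33. The other 17 members did not pass the limma test at an adjusted p of 0.05. The 6 changed genes are 26.1% of the members, against 50.6% of all 22548 probe sets tested. In the higher direction the share of all probe sets was 27.5%, and in the lower direction it was 23.1%. By unadjusted p under 0.05, 9 members differed, against 57% of all probe sets. The median log2 difference of the members was 0.11, and that of all probe sets was 0.11 as well. In the dimmest of the 5 bins, 13.5% of all probe sets rose and 7.18% fell, and of the 17 members there 2 rose and 1 fell. When each array was centred on its own median, the median of all probe sets moved to 0.29, 54.2% rose and 18.5% fell, and 14 members rose and 3 fell. The direction of the falls held under that scaling, and the number of rises is read against the median of all probe sets. The count of risen members also rested on single arrays: it was 6 without control replicate 3, 4 without UV replicate 1 and 1 without UV replicate 3. In those fits 31.2%, 23.9% and 22.9% of all probe sets rose.

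**Figure D1:**
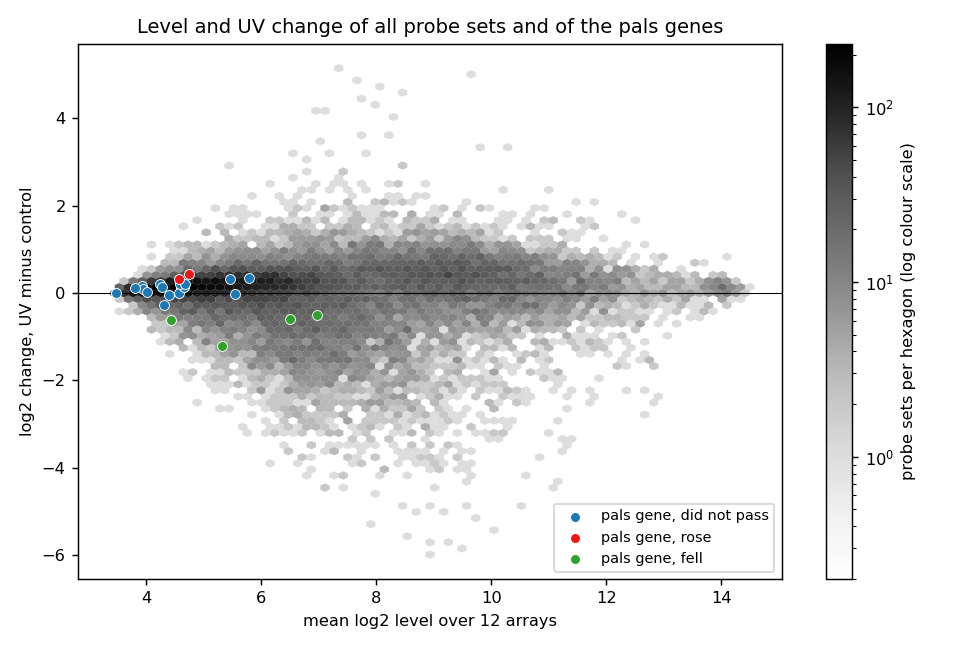
Mean log2 signal over the 12 arrays (x axis) against the log2 difference between UV and control (y axis) for all 22548 probe sets (grey hexagons, counts on a log colour scale) and for the 23 pals genes (coloured points). The pals genes lie at the dim end, where the spread of differences is narrow, and pals-23 is the member farthest below 0.

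pals-22, the repressor of the intracellular pathogen response, had log2 signals of 6.84, 7.10 and 6.37 on the control arrays and 6.20, 6.24 and 6.05 on the UV arrays. The control arrays spread widely, but each one was above each UV array. The group means were 6.77 ± 0.37 and 6.16 ± 0.10 (SD, n = 3), a 1.52-fold difference with a limma adjusted p of 0.00527. Its activator pals-25 read 7.15, 7.22 and 7.04 without exposure and 6.54, 6.60 and 6.77 with UV. These ranges do not overlap either, and the difference was 1.41-fold (limma adjusted p = 0.00046). The genes lie next to each other on chromosome III and work against each other, so the size of their falls was compared over the 6 arrays with UV and the 6 without. pals-22 stood 0.64 lower with UV and pals-25 stood 0.49 lower, and the difference between the falls, -0.15 on the log2 scale, did not pass (exact two-sided permutation p = 0.184 over 924 splits, smallest possible 0.00216). The splits did not keep arrays with and without TiO2 apart, and a test that did not pass does not show equal falls. Both genes fell where 10 of 11 intestine markers, 10 of 10 genes listed for late embryos or early larvae and 5 of 6 neuron markers fell. In the same comparison 6 of 8 germline markers rose and 1 fell, and 5 of 6 sperm markers rose. The hypodermis list had 4 of 8 risen and 3 fallen, and the adult-stage list 3 of 7 risen and 3 fallen. Of the body wall muscle list 3 of 5 fell. The part of these shifts in the signal of pals-22 and pals-25 was not tested.

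pals-23 fell most of the 23 members. It had log2 signals of 6.06, 5.82 and 5.77 in the controls and 4.69, 4.70 and 4.59 with UV. The lowest control array lay more than 1 log2 unit above the highest UV array. The means of 5.88 ± 0.15 and 4.66 ± 0.06 differed 2.33-fold (SE of the log2 difference 0.18, limma adjusted p = 0.000126). pals-31 had control signals of 5.05, 4.65 and 4.44 and UV signals of 4.22, 4.27 and 3.83. Its groups did not overlap, but the gap between the lowest control array and the highest UV array was small beside the SDs of 0.31 and 0.24. The log2 difference of -0.61 passed (limma adjusted p = 0.00907), and it missed the threshold after median centring of the arrays (-0.43, adjusted p = 0.0507).

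pals-2 rose 1.35-fold under UV. Its log2 signals were 4.35, 4.51 and 4.62 in the controls and 4.91, 4.86 and 5.005 with UV, with no overlap (limma adjusted p = 0.00158). pals-4, which lies near pals-2 in a run of pals genes on chromosome I, read 4.36, 4.46 and 4.41 and then 4.54, 4.70 and 4.98. All of its UV arrays were above all control arrays, and UV replicate 3 was the highest. The log2 difference of 0.33 passed (limma adjusted p = 0.0231), and the adjusted p was 0.107 without UV replicate 3, 0.0595 without control replicate 1 and 0.0699 when the control and UV arrays alone were fitted.

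**Figure D2:**
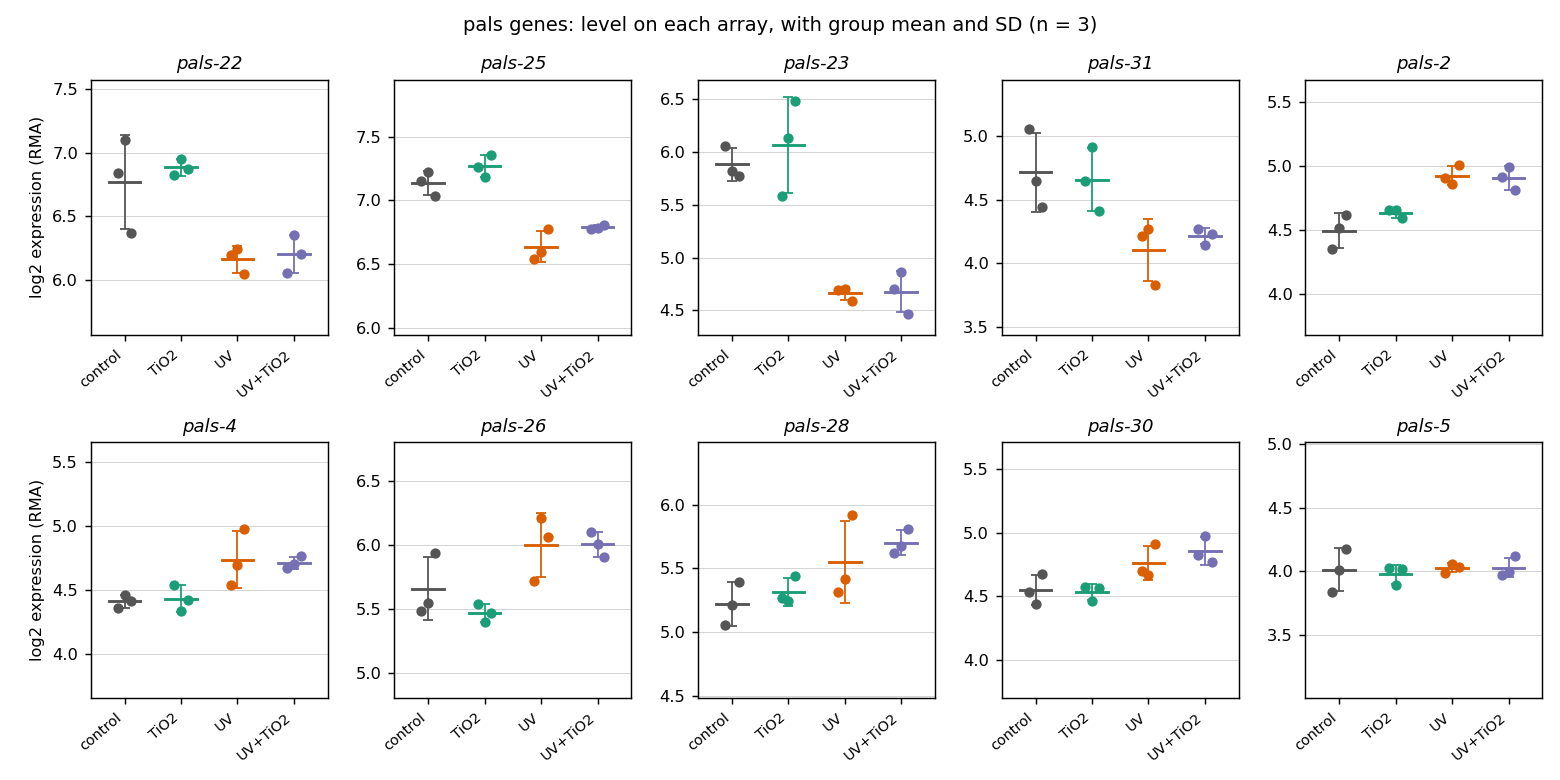
Log2 signal (y axis, a scale of its own in each panel) of 10 pals genes in the control, UV, TiO2 and UV with TiO2 groups (x axis); points are single arrays and bars are the mean ± SD of 3 arrays. For pals-22, pals-25 and pals-23 every array of both UV groups lies below every array of the other groups, for pals-2 every such array lies above, and pals-5 shows overlapping groups.

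pals-5, the reporter gene of the pathogen response, showed no difference that passed. It read 3.84, 4.01 and 4.18 in the controls, 3.99, 4.06 and 4.04 with UV, 4.03, 3.89 and 4.02 with TiO2, and 3.97, 4.00 and 4.12 with UV and TiO2. The 4 groups overlap throughout. The log2 difference between UV and control was 0.02, with a 95% interval of -0.19 to 0.22 (limma adjusted p = 0.896). That interval bounds the change in signal of this dim probe set, not of the transcript. Over the 3 comparisons of a UV group with a group that had no UV, 10 members passed in none: pals-5, pals-6, pals-11, pals-12, pals-13, pals-15, pals-32, pals-33, pals-37 and pals-38. Their UV differences from control lay between the -0.27 of pals-32 and the 0.16 of pals-11. Across the 23 members, 15 differences were above 0 and 8 below, where the median of all probe sets was itself above 0, at 0.11. The share of all probe sets that passed in none of the 3 comparisons was not computed. Taken singly, 50.6% of all probe sets passed for UV against control. For UV with TiO2 it was 54.5% against control and 54.5% against TiO2.

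UV with TiO2 was then compared with TiO2 alone, a difference of means that shares no array with UV against control. Both tests took their spread from one fit of all 12 arrays, so their p-values are not independent. The 6 genes that changed under UV all changed again in the same direction when the medium held TiO2. They make up 100% of the members called under UV and 54.5% of the 11 members called in the TiO2 medium. The share of all probe sets called in both comparisons was not computed. Of all probe sets, 50.6% were called for UV against control and 54.5% in the TiO2 medium, so the repetition is not read as particular to the family. Of those 11 members, 7 rose, where the share of all probe sets was 32.3%, and 4 fell, where it was 22.2%. By unadjusted p under 0.05 the same number, 11, differed, against 61% of all probe sets. The members' median log2 difference was 0.08, against 0.15 over all probe sets. The 5 genes called in the TiO2 medium alone were pals-1, pals-26, pals-28, pals-29 and pals-30. They are not shown to respond to UV differently with TiO2: the test of that difference, the interaction, passed for no probe set on the array, so its failure to pass for these genes says little.

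pals-23 read 5.58, 6.13 and 6.48 with TiO2 and 4.70, 4.86 and 4.47 with UV and TiO2, a 2.61-fold fall (limma adjusted p = 4.61e-05). Its TiO2 arrays spread over a wide range, but none came near the UV arrays. pals-22 read 6.83, 6.95 and 6.87 against 6.06, 6.35 and 6.20, a log2 difference of -0.68 (limma adjusted p = 0.00253). pals-25 read 7.26, 7.18 and 7.35 against 6.77, 6.79 and 6.81, a log2 difference of -0.48 (limma adjusted p = 0.000713). The regulators thus fell again on arrays whose group means had no part in the first difference. Among the genes that rose, pals-26 had the largest log2 difference, 0.54 (limma adjusted p = 0.00633), from 5.54, 5.39 and 5.47 to 6.10, 6.01 and 5.91. Its groups were well apart here, whereas its control arrays, at 5.48, 5.55 and 5.94, overlapped its UV arrays, at 5.72, 6.21 and 6.06. pals-2 read 4.65, 4.65 and 4.59 with TiO2 and 4.91, 4.996 and 4.81 with both exposures (log2 difference 0.27, limma adjusted p = 0.0226). pals-4 read 4.54, 4.33 and 4.42 and then 4.67, 4.70 and 4.76 (0.28, limma adjusted p = 0.0417). Neither gene's groups overlap, though pals-4 is separated narrowly. pals-31 read 4.65, 4.91 and 4.41 and then 4.27, 4.14 and 4.23 (-0.44, limma adjusted p = 0.0406), and pals-1 read 4.51, 4.48 and 4.48 and then 4.72, 4.65 and 4.72 (0.21, limma adjusted p = 0.0405).

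The calls differed in how far they rested on single arrays. Those of pals-22, pals-23, pals-25 and pals-26 passed whichever array was left out. For the others the highest adjusted p was 0.104 for pals-1 (without UV with TiO2 replicate 1; it missed the threshold without any 1 UV, TiO2 or UV with TiO2 array), 0.0867 for pals-2 (without its replicate 2), 0.137 for pals-4 (without TiO2 replicate 2) and 0.122 for pals-28 (without UV with TiO2 replicate 3). It was 0.098 for pals-29, 0.0576 for pals-30 and 0.164 for pals-31 without TiO2 replicate 2, and 0.0676 for pals-30 without UV with TiO2 replicate 2. Over all alternative fits and scalings, pals-1 lost its call in 13 of 20 and pals-4 in 8 of 20. pals-28 lost it in 7 of 21, pals-31 in 7 of 20 and pals-2 in 4 of 20. For pals-29 it was lost in 3 of 21 and for pals-30 in 3 of 20. The count of risen members depended on single arrays: it was 2 without TiO2 replicate 2, 4 without TiO2 replicate 3, 2 without UV with TiO2 replicate 1, 2 without its replicate 2 and 3 without its replicate 3.

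**Figure D3:**
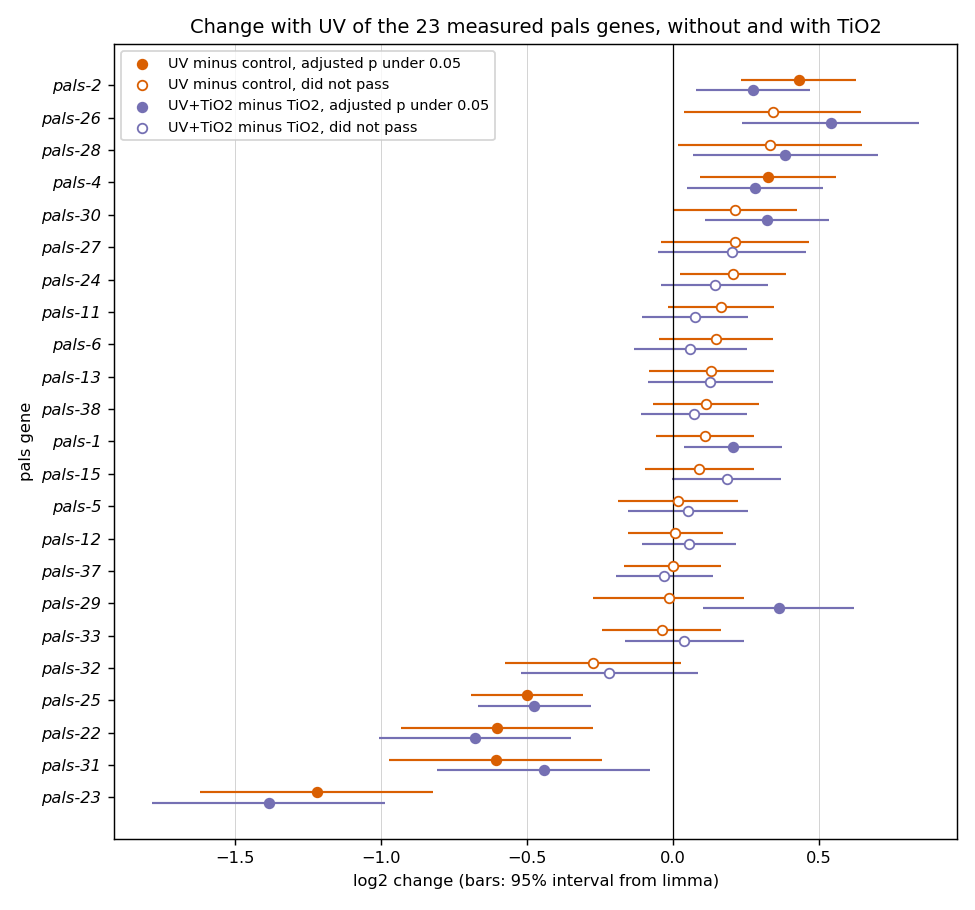
Log2 difference of each of the 23 pals genes (rows) between UV and control and between UV with TiO2 and TiO2 alone (x axis, log2 units), with 95% intervals from limma. The differences share no array, but their intervals rest on a spread estimated over all 12 arrays. pals-22, pals-23, pals-25 and pals-31 lie below 0 in both, and most other members lie above 0.

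Against the untreated controls, UV with TiO2 raised 6 members, where the share of all probe sets was 31.9%, and lowered 4, where it was 22.6%. By unadjusted p under 0.05, 11 members differed, against 60.6% of all probe sets. The 4 that fell were again pals-22, pals-23, pals-25 and pals-31, and those that rose were pals-2, pals-4, pals-24, pals-27, pals-28 and pals-30. This comparison uses the same control arrays as UV against control, so it is no separate support. pals-28 rose 1.40-fold, from 5.05, 5.21 and 5.40 in the controls to 5.62, 5.67 and 5.81 (limma adjusted p = 0.0145). pals-30 went from 4.53, 4.44 and 4.67 to 4.82, 4.98 and 4.77 (log2 difference 0.31, limma adjusted p = 0.0188). In both genes the groups did not overlap. pals-24, whose probe set name marks possible cross-hybridisation and whose signal is uncertain for that reason, went from 4.20, 4.04 and 4.10 to 4.27, 4.40 and 4.35 (0.23, limma adjusted p = 0.0361). pals-27 went from 4.29, 4.30 and 4.67 to 4.71, 4.73 and 4.82 (0.34, limma adjusted p = 0.0284), with control replicate 3 near the exposed arrays. pals-2, pals-22, pals-23 and pals-25 passed whichever array was left out. The highest adjusted p was 0.0904 for pals-4 and 0.0552 for pals-28 without UV with TiO2 replicate 3, 0.0801 for pals-30 without its replicate 2, 0.116 for pals-24 without control replicate 2, and 0.101 for pals-31 without control replicate 1. Over all alternative fits and scalings, pals-4 and pals-24 each lost the call in 6 of 20. pals-31 lost it in 5 of 20, pals-30 in 3 of 20 and pals-28 in 2 of 21. pals-27 missed the threshold without control replicate 1 (0.0948) or 2 (0.0997), without UV with TiO2 replicate 1 (0.0524), 2 (0.0578) or 3 (0.0872), with array SD as a covariate (0.0574) and in a fit of the compared arrays alone (0.0531). The number of risen members was 3 without control replicate 1, 3 without control replicate 2, 2 without UV with TiO2 replicate 2 and 2 without its replicate 3.

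TiO2 without UV changed no pals gene. The members' log2 differences from control lay between -0.19, for pals-26, and 0.18, and the median was 0.01. By limma none of the 23 passed after adjustment, when 0.00443% of all probe sets did, and none had an unadjusted p under 0.05, when 4.55% of all probe sets had. pals-2 and pals-25 stood 0.14 and 0.13 higher with TiO2, and for both genes the TiO2 and control arrays overlapped. With 3 arrays a group, these differences were somewhat larger than the members' median standard error of 0.095, and neither passed.

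Adding TiO2 to UV gave log2 differences from UV alone between -0.06 and 0.26. None of the 23 passed in limma, against 0.0887% of all probe sets, and none had an unadjusted p under 0.05, against 6.14% of all probe sets. The largest difference was that of pals-29, which read 5.32, 5.45 and 5.71 with UV and 5.78, 5.67 and 5.80 with UV and TiO2. These ranges overlap. The difference of 0.26 had an adjusted p of 0.809 in limma, and the adjusted p was 0.0316 when arrays were weighted by their quality. pals-25 and pals-27 stood 0.15 and 0.13 higher, with limma adjusted p of 0.868 and 0.894.

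The interaction, which asks whether the effect of UV differed with TiO2, passed for 0% of all probe sets and for none of the 23 members. By unadjusted p under 0.05 it reached 1 member, pals-29, and 5.15% of all probe sets. For pals-29 UV made a log2 difference of -0.02 without TiO2 and of 0.36 with it, and the difference between these, 0.38, had a 95% interval of 0.01 to 0.74 (limma adjusted p = 0.96). For pals-26 the interaction was 0.20, and it was 0.06 without control replicate 3, 0.06 without UV replicate 1 and 0.30 without UV replicate 2. For pals-2 it was -0.16, and it was -0.08 without control replicate 1. Over the 4 groups together, limma's F-test found a difference for 9 of the 23 members, against 55.5% of all probe sets.

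By position, the RefSeq table places 15 pals genes on chromosome I, and the 9 measured ones had log2 differences between UV and control from 0.01 to 0.43, with 2 risen and none fallen. On chromosome III it places 14, and the 7 measured ones ranged from -1.22 to 0.34, with 3 fallen and none risen, where 23.1% of all probe sets fell and 27.5% rose. In the other UV comparisons members on chromosome III also rose: pals-24, pals-27 and pals-28 with UV and TiO2 against control, and pals-26 and pals-28 against TiO2. Of the 5 measured genes on chromosome V only pals-31 changed, and neither of the 2 on chromosome IV did. Adjacent members did not always go the same way. pals-23, which fell, and pals-24, whose log2 difference was 0.21 and did not pass, are separated in the table by a single gene, C29F9.12. These counts are too few for a statement about chromosomes or directions, and no test was made.

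Genes of the pathogen response outside the family were set beside the members. The list was compiled from prior knowledge with results of these data known. Of 25 listed target genes 22 were measured, and under UV 5 rose and 2 fell, with a median log2 difference of 0.10. The 31.8% called lay below the 50.6% of all probe sets, whose median was 0.11. cul-6, the cullin of the response's ubiquitin ligase, had log2 signals of 5.77, 5.57 and 5.83 in the controls and 7.39, 6.92 and 7.08 with UV, a 2.65-fold rise (limma adjusted p = 4.09e-06). The Skp1-related genes split: skr-3 rose by 1.10 on the log2 scale (limma adjusted p = 0.000408), and skr-4 and skr-5 fell by 1.37 and 1.93 (limma adjusted p = 6.41e-07 and 8.43e-08). skr-5 read 8.30, 7.92 and 7.89 in the controls and 5.99, 6.17 and 6.17 with UV, so the groups lay far apart. The other risen targets were eol-1, F26F2.1 and C49C8.2, with log2 differences of 0.42, 0.52 and 0.49, and the adjusted p of C49C8.2 was 0.0507 without control replicate 3.

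All 7 listed regulators outside the family were measured, and 3 rose and 2 fell with UV, where 27.5% of all probe sets rose and 23.1% fell. pnp-1, which encodes a purine nucleoside phosphorylase that represses the response, read 11.75, 11.97 and 12.06 in the controls and 7.17, 7.23 and 6.95 with UV. It fell by 4.81 on the log2 scale (limma adjusted p = 2.52e-11), on a probe set whose name marks possible cross-hybridisation. On a second probe set of the gene, without that mark, the log2 difference was -3.79. sta-1, a STAT-like factor, fell by 2.01 on the log2 scale (limma adjusted p = 6.19e-05). drh-1, a RIG-I-like helicase that senses viral RNA, rose by 0.74 on its brighter probe set (limma adjusted p = 0.00437), whose name marks possible cross-hybridisation. A dimmer one without that mark showed 0.20 and did not pass. rde-4, which encodes a double-stranded RNA binding protein of RNA interference, rose by 0.58 (limma adjusted p = 0.00012). lin-35, the retinoblastoma homolog, rose by 0.76 (limma adjusted p = 0.0265), but its adjusted p was 0.0995 without control replicate 2, 0.0666 without control replicate 3, 0.104 without UV replicate 1 and 0.0676 without UV replicate 2. A second lin-35 probe set differed by 0.47, with overlapping arrays, and did not pass (limma adjusted p = 0.34). zip-1, a bZIP factor needed for part of the response, differed by 0.02 with a 95% interval of -0.16 to 0.20. No target or regulator passed with TiO2 alone or when TiO2 was added to UV.

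**Figure D4:**
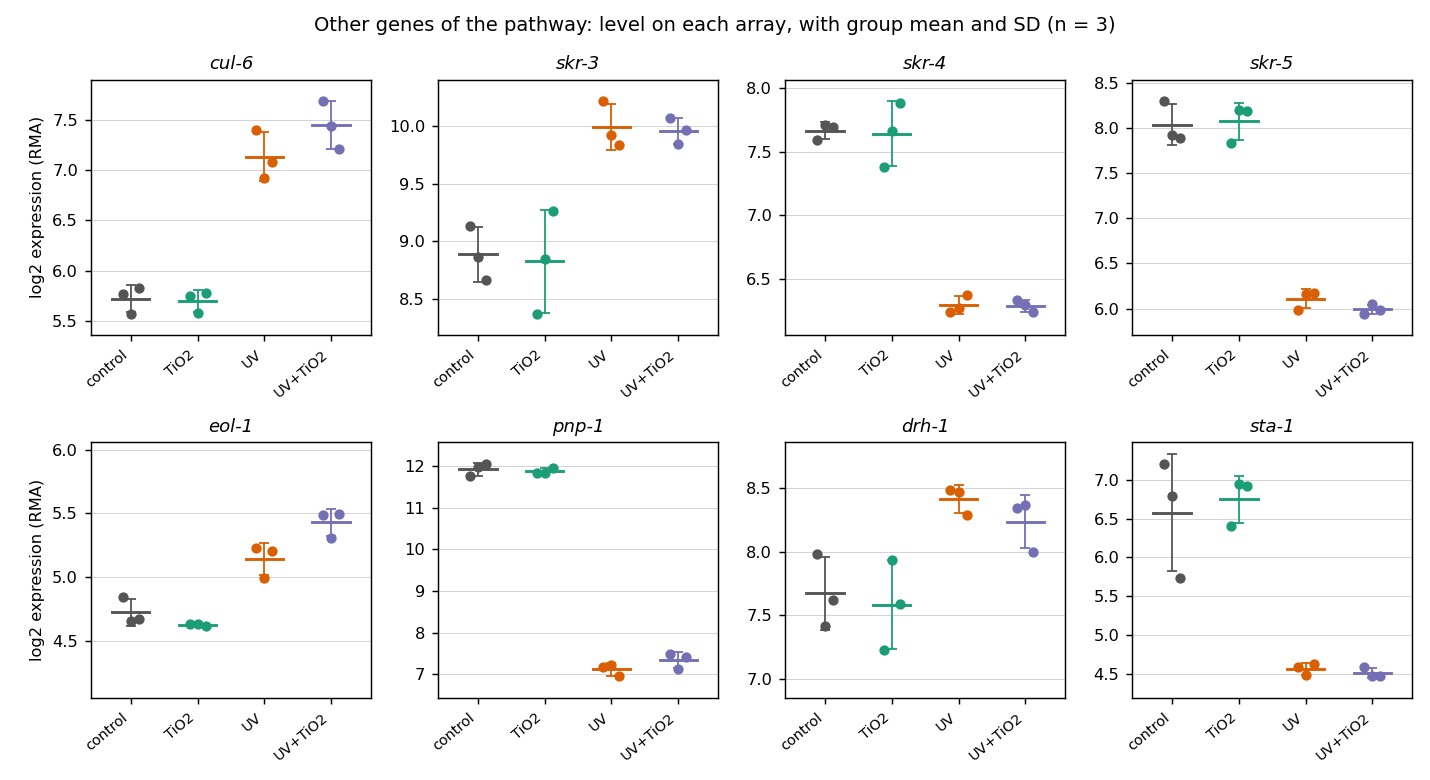
Log2 signal (y axis, a scale of its own in each panel) of 8 genes of the intracellular pathogen response outside the pals family in the 4 groups (x axis); points are single arrays and bars are the mean ± SD of 3 arrays. cul-6 and skr-3 are higher in both UV groups, and skr-4, skr-5, pnp-1 and sta-1 are lower.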

How the data were processed

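The authors deposited log2 values for 12 arrays, made with GCOS, Affymetrix Expression Console and RMA per the submitters' processing notes; background and build settings are not given in the sources used here. Of 22625 probe sets, 77 controls were left out, which left 22548: 20766 with 1 symbol, 887 with several and 895 with none. No further normalisation or filter was applied. limma 3.58.1 (lmFit and eBayes, R 4.3.3) was fitted to the 4 group means of all 12 arrays, with 8 residual and 4.37 prior degrees of freedom, and checked on simulated data. It gave 6 comparisons and an F-test, with Benjamini-Hochberg adjusted p-values computed across the 22548 probe sets and a threshold of 0.05. Genes were named through the array annotation and the RefSeq table; all 23 members matched by gene number. Members were named if they were pals-5 or a known regulator, had 1 of the 10 smallest F-test p among the rest, had 1 of the 3 smallest p where a comparison had no calls, or had 1 of the 2 largest rises or falls against control. The members and lists were chosen with earlier results of these data known. Replicate numbers did not pair the arrays: same-numbered arrays' deviations from the group means correlated between -0.714 and 0.501 (median 0.0477 over 18 pairs). The number of arrays limits the precision.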

Additional observations from a re-analysis of the deposited data

Results flagged for a closer look

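For eol-1, a target of the pathogen response that encodes a DXO-like protein, every TiO2 array lay below the control mean and every UV with TiO2 array above the UV mean. Its log2 difference with TiO2 was -0.10 without UV and 0.29 with UV, which differ by 0.3832. For chil-27, a chitinase-like gene of the response to oomycetes, the differences were -0.08 and 0.22, which differ by 0.2992. For srh-127, a chemoreceptor-family gene next to pals-32, they were -0.10 and 0.26, which differ by 0.3623. The opposite directions over single arrays are a description and were not tested. The interaction in limma, fitted over all probe sets, passed for none of these genes (adjusted p = 0.898 for eol-1, 0.962 for chil-27 and 0.901 for srh-127). These genes are named here after their values were seen.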

How the results depend on the processing

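Under every alternative that tested them, pals-22 and pals-23 fell in all 3 UV comparisons, and TiO2 alone changed no member. pals-25 missed the threshold only for UV with TiO2 against control after a second quantile normalisation (log2 difference -0.10, adjusted p = 0.318). Members risen with UV against control numbered 4 with a level-dependent prior variance, 0 without the dimmest 30% of probe sets, 14 with median centring, 9 with array weights, 6 with array SD as a covariate and 1 in a fit of the compared arrays alone, with 1 to 6 when single arrays were left out. Of the probe sets tested, 28.6% rose with the level-dependent prior, 32.8% without the dimmest and 54.2% with centring. The share was 37.4% with array weights, 34.3% with the SD covariate and 21.9% to 31.2% with arrays left out. The count of falls was 2 without the dimmest probe sets, a setting that left 5 members to test, and 4 to 5 with arrays left out. In these settings 28.9% and 21.0% to 23.5% of the probe sets tested fell. For the fit of the compared arrays alone, the other comparisons and the F-test, such shares were not computed. For UV with TiO2 against control, rises numbered 2 without the dimmest probe sets, 14 with centring and 2 to 7 with arrays left out, and falls 2 and 3 to 5. Against TiO2 alone, rises numbered 3 without the dimmest, 2 after quantile normalisation, 11 with centring, 4 with the SD covariate and 2 to 7 with arrays left out, and falls 2 and 3 to 4. UV with TiO2 against UV gave 1 rise, pals-29, with array weights. The F-test found 4 without the dimmest, 17 with centring, 14 with array weights and 6 to 10 with arrays left out. The cause of the differences between settings was not tested, except that fewer members were tested without the dimmest probe sets. With the replicate number as a block, 3 members rose and 4 fell with UV, 6 rose and 4 fell with UV and TiO2 against control, and 6 rose and 4 fell against TiO2. In that fit 26.7% of all probe sets rose and 22.8% fell with UV. The block ended the calls of pals-1 against TiO2 (adjusted p = 0.0549) and of fbxb-81 with UV (0.0525), added that of pals-28 with UV (0.0188), and changed no other call of a named gene. Differences near 0 changed sign. For UV against control, pals-29 turned to 0.16 with centring and ranged from -0.1246 to 0.0719 with arrays left out. pals-5 turned to -0.0435 after quantile normalisation and -0.0013 with the SD covariate, and ranged from -0.0683 to 0.1001. chil-27 turned to 0.11 with centring and ranged from -0.2035 to 0.0409, zip-1 turned to -0.0013 after quantile normalisation and -0.0825 with array weights and ranged from -0.0213 to 0.0705, and drh-3 ranged from -0.1019 to 0.337. For UV with TiO2 against control, pals-5 turned to -0.0621 and -0.0634 under quantile normalisation and the SD covariate and ranged from -0.0669 to 0.1016. zip-1 turned to 0.12 with centring and 0.0183 with the SD covariate and ranged from -0.0544 to 0.0374. drh-3 turned to 0.1061, 0.0765, 0.2459 and 0.0755 under quantile normalisation, centring, array weights and the SD covariate and ranged from -0.2992 to 0.1397. Against TiO2 alone, pals-5 turned to -0.0324 and -0.0236 under quantile normalisation and the SD covariate. The dimness of 17 of the 23 probe sets limits what their signals can show.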

Other observations

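Genes that stand next to a measured pals gene in the RefSeq order without belonging to the family numbered 27, and 18 of them were measured. Under UV 4 of these rose, 2 fell and 12 did not pass, where 27.5% of all probe sets rose and 23.1% fell. R07E5.4, next to pals-28, fell by 2.33 on the log2 scale (limma adjusted p = 5.51e-08). C29F9.12, which lies between pals-24 and pals-23, rose by 1.16 (limma adjusted p = 6.7e-06) on a probe set whose name marks possible cross-hybridisation, while pals-23 fell. On the other side of pals-24, C29F9.5 rose by 0.47 (limma adjusted p = 0.00228). fbxb-81, an F-box gene next to pals-25, rose by 0.37 (limma adjusted p = 0.0331) while pals-25 fell, but its adjusted p was 0.118 without control replicate 1, 0.143 without UV replicate 3, 0.0658 with array weights and 0.0525 in a fit of the compared arrays alone. srh-127, next to pals-32, rose by 0.36 (limma adjusted p = 0.00674). timm-23, next to pals-1 and named for a subunit of the mitochondrial import machinery, fell by 0.27 (limma adjusted p = 0.00995), and its adjusted p was 0.3 after median centring of the arrays. These genes were chosen by position after results of these data were known.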
